A study of Homo sapiens with 45 samples.

Results

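Domains of the histone mark H3K9me3 that appeared only in the list made after HNRNPK knockdown are described here. They are the domains of the knockdown H3K9me3 list on chromosomes 1-22 that share no base with any domain of the control H3K9me3 list, and 1083 of the 1918 knockdown H3K9me3 domains on these chromosomes met the rule. The other 835 knockdown domains overlapped a control domain and are called kept domains below. The control list holds 845 domains on the same chromosomes, of which 838 (99.2%) had a base in a knockdown domain. The new domains were chosen by their presence in one list and absence from the other, so their gain of H3K9me3 is how they were defined and is not a result.

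The cells were HCT116, an established human colon cancer line, transfected with 25 nM of nontargeting control siRNA or HNRNPK siRNA and collected after 72 hours. Chromatin immunoprecipitation (ChIP) with antibodies against lamin B1, H3K9me2, H3K9me3 and H3K27me3 gave 7 domain lists, 1 per antibody and siRNA, with H3K9me2 in control cells alone. The labels name 3 H3K9me3 samples per siRNA, but each siRNA has 1 list, so no domain has a replicate and the read depth behind a domain is unknown. RNA was sequenced in 4 libraries per siRNA (siNTC5 for the control), of which 2 per group were made with the TruSeq kit (replicates 1 and 2) and 2 with the Ligation kit (replicates 3 and 4). Total counts ran from 12107280 to 23633851 per library. The labels do not say whether the replicates came from separate cultures, so p-values measure the spread between these libraries.

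H3K9me3 is a mark of constitutive heterochromatin that is written by SUV39H1, SUV39H2 and SETDB1 and bound by the HP1 proteins CBX1, CBX3 and CBX5. In many cell types it covers repeats, zinc finger gene clusters and a part of the chromatin that lies at the nuclear lamina, the protein layer under the nuclear envelope to which lamin B1 belongs. H3K9me2 is a further mark of lamina chromatin, and H3K27me3 is the mark placed by the Polycomb repressive complex PRC2. HNRNPK encodes heterogeneous nuclear ribonucleoprotein K, which binds C-rich RNA and single-stranded DNA.

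HNRNPK RNA was lower in every knockdown library than in any control library. It stood at 934, 967, 822 and 814 CPM (reads per gene after TMM scaling, set to the same total in each library) in control replicates 1 to 4 and at 250, 223, 157 and 164 CPM in knockdown replicates 1 to 4. The log2 fold change was -2.17 ± 0.06 (SE), with an adjusted p of 7.29e-15 by the quasi-likelihood test of edgeR. Of the markers of colon epithelium, 6 of 8 were detected well enough to test (CEACAM5 and VIL1 were not). Their summed level was 2696 to 3113 CPM in control libraries and 4402 to 5441 CPM in knockdown libraries. In bulk RNA, less RNA per cell and fewer cells with the RNA cannot be told apart. None of 4 leukocyte markers, 1 of 3 endothelial markers (VWF) and 2 of 5 fibroblast markers were tested, the last with summed levels of 44.5 to 73.1 CPM in control and 74.6 to 122 CPM in knockdown libraries.

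Promoters of 4 genes whose transcription start lies in a new domain are printed to show what sequence such a domain can hold: ATAD3C and LVRN are among the 8 genes there whose RNA rose most after knockdown, and RSPH3 and MAN2B2 are the 2 whose RNA fell most. Each sequence runs from 250 bases before to 50 bases after a RefSeq start on GRCh38.p14, on the strand of the gene, with CG dinucleotides in capitals. The ATAD3C promoter lies at chr1:1449439-1449738 on the plus strand and the LVRN promoter at chr5:115962225-115962524 on the plus strand. The RSPH3 promoter lies at chr6:159000138-159000437 on the minus strand and the MAN2B2 promoter at chr4:6574939-6575238 on the plus strand.
ATAD3C: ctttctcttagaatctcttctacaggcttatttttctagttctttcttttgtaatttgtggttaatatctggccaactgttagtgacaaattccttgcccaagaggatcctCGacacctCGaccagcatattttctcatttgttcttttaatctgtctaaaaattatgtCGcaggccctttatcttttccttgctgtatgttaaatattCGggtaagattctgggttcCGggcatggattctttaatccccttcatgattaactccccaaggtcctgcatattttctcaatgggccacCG
LVRN: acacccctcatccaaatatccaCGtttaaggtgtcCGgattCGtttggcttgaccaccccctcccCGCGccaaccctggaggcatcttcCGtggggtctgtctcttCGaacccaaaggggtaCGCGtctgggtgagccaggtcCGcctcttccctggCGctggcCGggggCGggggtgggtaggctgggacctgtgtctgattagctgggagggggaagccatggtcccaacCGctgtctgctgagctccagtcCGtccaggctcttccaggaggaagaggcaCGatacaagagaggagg
RSPH3: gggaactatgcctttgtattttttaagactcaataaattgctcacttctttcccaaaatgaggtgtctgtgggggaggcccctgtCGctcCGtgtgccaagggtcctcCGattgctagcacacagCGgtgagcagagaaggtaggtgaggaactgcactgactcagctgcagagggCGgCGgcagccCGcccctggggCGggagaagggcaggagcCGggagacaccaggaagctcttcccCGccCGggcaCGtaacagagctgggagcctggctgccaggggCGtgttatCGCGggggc
MAN2B2: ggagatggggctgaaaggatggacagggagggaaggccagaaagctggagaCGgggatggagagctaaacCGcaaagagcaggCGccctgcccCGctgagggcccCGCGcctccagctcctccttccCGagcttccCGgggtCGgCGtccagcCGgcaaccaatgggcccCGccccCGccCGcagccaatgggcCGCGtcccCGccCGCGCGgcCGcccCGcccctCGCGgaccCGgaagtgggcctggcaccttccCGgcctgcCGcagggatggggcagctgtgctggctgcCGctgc

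The ATAD3C window held 6 CG dinucleotides at a GC content of 39.7%, and the LVRN window held 16 at 62.7%. The RSPH3 window held 15 at 61.3%, and the MAN2B2 window held 28 at 74%. Over all 480 protein-coding genes with a listed start in a new domain, the median was 19 CG dinucleotides per 300-base window, with quartiles of 4 and 32. It was 22 over the 15101 protein-coding genes on chromosomes 1-22 with a listed start and 12 over the 1315 with a start in a kept domain. A CpG-rich window, here a GC content of at least 50% with an observed-to-expected CG ratio of at least 0.6, was found for 259 (54.0%) of the genes with a start in a new domain. The share was 63.9% over all genes and 43.8% in kept domains. The C-rich word CCCTCCC, searched on both strands, was in 24.8% of the new-domain windows, in 30.2% of all windows and in 19.5% of the kept-domain windows. By these measures the promoters inside new domains lay between those of kept domains and the average promoter.

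The new domains were narrow. Their width ran from 60 to 670 kb with a median of 80 kb and quartiles of 70 and 105 kb, on lists whose edges fall on steps of 5 kb. Kept domains ran from 60 to 13970 kb with a median of 220 kb. Of the new domains, 790 (72.9%) were at most 100 kb wide, 59 (5.45%) were over 200 kb and 7 were over 300 kb. The narrowest control domain was 65 kb wide, and 142 new domains (13.1%) were below that width. In all, the new domains spanned 107 Mb, or 3.74% of chromosomes 1-22, against 625 Mb in kept domains. The parts of kept domains that lay outside control domains, called gained edges below, came to 32.1 Mb in 1189 pieces.

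The score that the authors gave each domain, whose unit and method are not stated, was also low. New domains scored from 0.452 to 1.26 with a median of 0.595, and kept domains from 0.457 to 4.40 with a median of 1.07. At matched widths of 60 to 105 kb the medians were 0.595 for 823 new domains and 0.920 for 160 kept domains. The lowest score in the control list was 0.467, and 53 new domains (4.89%) were below it. A score above 1 was found for 23 new domains (2.12%) and for 466 kept domains (55.8%). Width and score are properties of how the new domains came to be listed and are given as descriptions. The knockdown list reached down to lower scores and narrower widths than the control list. At or above the lowest control score were 1030 of the new domains. The control list had a median score of 0.781 and a first quartile of 0.587, and 521 new domains (48.1%) were below that quartile. Whether the scores of both lists share a scale is not given. The 1030 are thus not shown to be domains that would have passed in the control list. The calling threshold of either list is not given in the sources used here.

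**Figure D1:**
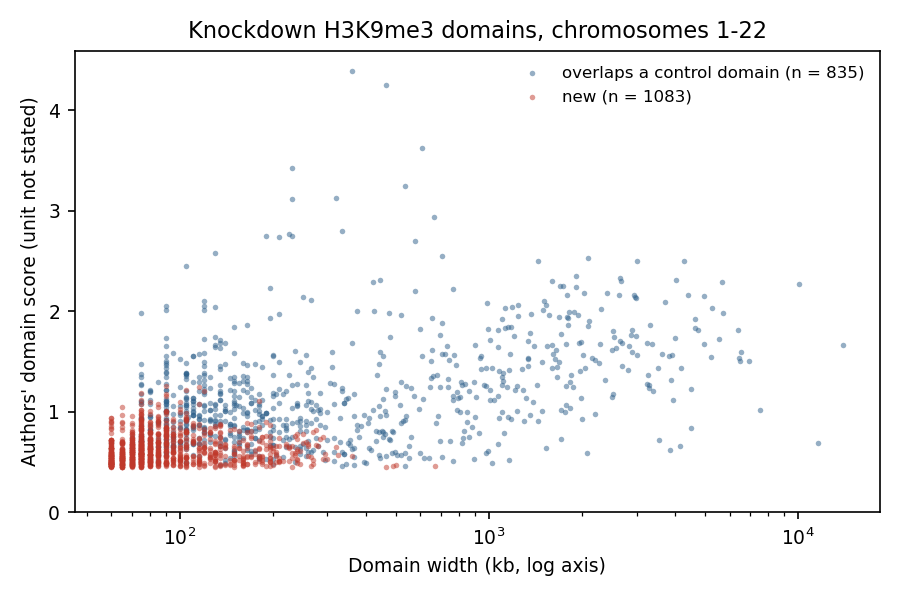
Width in kb (log axis) against the authors' score for each knockdown H3K9me3 domain on chromosomes 1-22, with new domains in red and domains that overlap a control domain in blue; each point is 1 domain. New domains sit in the narrow, low corner, at a median of 80 kb and 0.595, while kept domains reach 13970 kb and a score of 4.40.

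The distance of new domains from control H3K9me3 domains, which by the rule they cannot overlap, varied widely. The gap to the nearest one had a median of 905 kb, with a range of 30 to 11910 kb, and it was 1 Mb or more for 501 domains (46.3%). It was under 50 kb for 14. Just inside the rule, 1 new domain lay 30 kb from a control domain, and just outside it the kept domain with the smallest overlap shared 60 kb, and the smallest overlap as a share of the domain was 14.3%. The next new domain was within 200 kb for 260 (24%), and the median distance was 575 kb. These distances were not compared with those of domains placed at random, so they do not show whether new domains cluster or scatter. Within 5 Mb of a chromosome end lay 93 (8.59%).

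The chromosomes took unequal shares. Chromosome 2 held 132 new domains, chromosome 1 held 127 and chromosome 4 held 101. Chromosome 18 held 7, chromosome 19 held 6 and chromosome 21 held 2. As a share of the length outside control H3K9me3 domains, new domains took 6.62% of chromosome 12, 6.47% of chromosome 1 and 6.44% of chromosome 2. They took 1.24% of chromosome 18, 1.04% of chromosome 19 and 0.652% of chromosome 21.

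**Figure D2:**
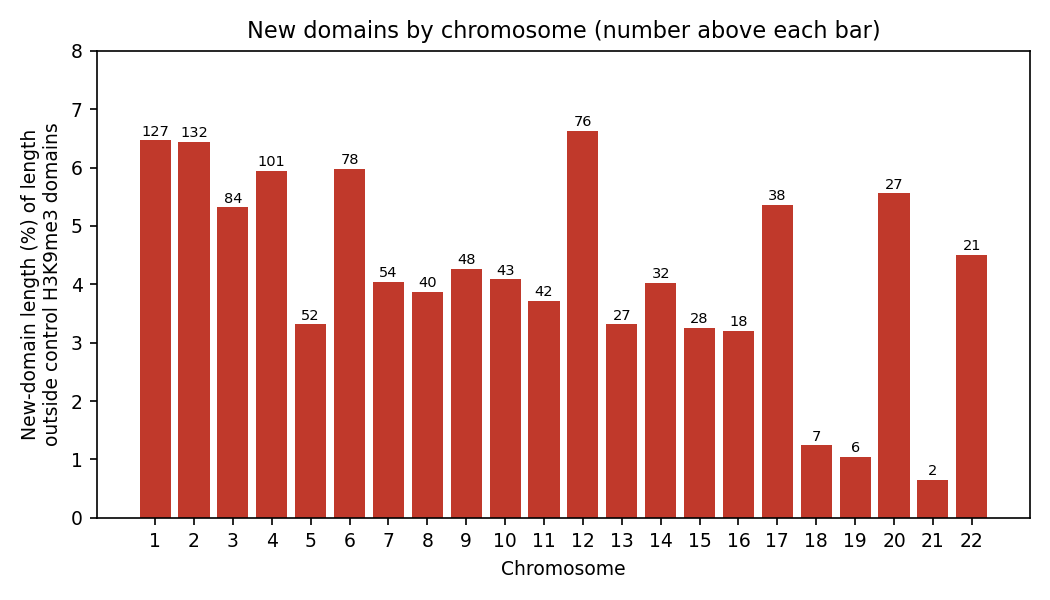
Length of new H3K9me3 domains as a percentage of the length outside control H3K9me3 domains, by chromosome, with the number of new domains above each bar. Chromosomes 12, 1 and 2 stand highest, at 6.62%, 6.47% and 6.44%, and chromosomes 18, 19 and 21 lowest, at 1.24%, 1.04% and 0.652%.

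Lamin B1 covered little of the new domains. In control cells 14.3% of their length lay in lamin B1 domains, against 80.9% of the kept-domain length and 15.4% of all length outside control H3K9me3 domains. After knockdown the shares were 6.15%, 78.4% and 6.21%. Gained edges had 28.0% in control cells and 22.6% after knockdown. In both conditions the lamin B1 cover of new domains was near that of all length outside control H3K9me3. Counted by domain, 141 new domains (13%) were at least 50% covered by lamin B1 in control cells and 60 (5.54%) after knockdown. Of the 141, 47 were so covered in both lists and 94 in the control list alone, while 13 were covered in the knockdown list alone and 929 in neither.

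The lamin B1 length that new domains had in control cells was mostly gone from the knockdown list. Of 15.4 Mb, 34.3% was still in a lamin B1 domain after knockdown, and 10.1 Mb was not. A further 1.33 Mb was in the knockdown list alone. The retained share was 95.9% in kept domains, 75.8% in gained edges and 34.1% over all length outside control H3K9me3 domains. The share in new domains was below that in kept domains and near that of all length outside control H3K9me3, and with 1 list per condition none of these shares has a replicate or a test.

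H3K27me3 was the most frequent other mark. Its control domains covered 35.4% of the new-domain length, 15.9% of the kept-domain length, 41.8% of gained edges and 30.0% of the length outside control H3K9me3. After knockdown the shares were 34.1%, 15.7%, 41.2% and 28.8%. By domain, 379 new domains (35.0%) were at least 50% covered in control cells and 361 (33.3%) after knockdown, of which 359 were the same domains. Of the control H3K27me3 length in new domains, 95.5% was still in the knockdown list, against 94.7% outside control H3K9me3. Where new domains overlap H3K27me3 domains, the lists do not show whether both marks sat in the same cells.

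H3K9me2 in control cells covered 8.27% of the new-domain length. The share was 80.0% for kept domains, 19.9% for gained edges and 6.44% for all length outside control H3K9me3. By domain, 77 (7.11%) were at least 50% covered. No H3K9me2 list after knockdown was used here, so it cannot be said whether H3K9me2 was there when H3K9me3 was listed.

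**Figure D3:**
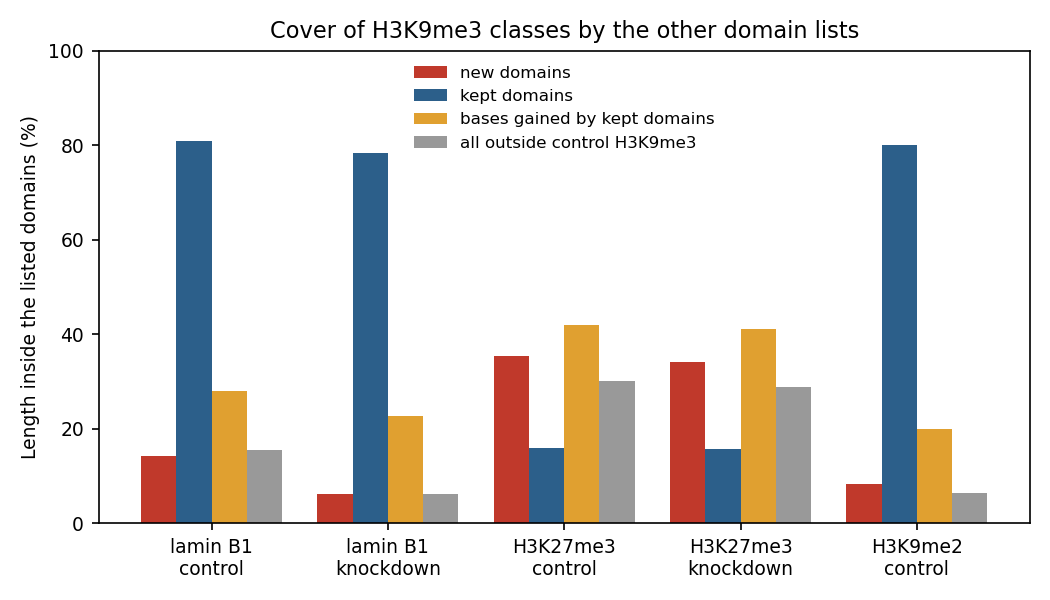
Percentage of length inside the lamin B1, H3K27me3 and H3K9me2 domain lists for new domains, kept domains, bases gained at the edges of kept domains and all length outside control H3K9me3 domains; each bar is 1 list, without replicates. New domains follow the length outside control H3K9me3 for lamin B1 (14.3% against 15.4% in control cells), and kept domains stand apart at 80.9%.

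Sorted by their marks in control cells at 50% cover, 681 new domains (62.9%, 66.2 Mb) lay in none of the lamin B1, H3K27me3 and H3K9me2 lists. A further 247 (22.8%) had H3K27me3 alone. Lamin B1 with both other marks was found for 62, and 28 of them still had lamin B1 after knockdown. Lamin B1 with H3K27me3 was found for 58, of which 16 kept it, and lamin B1 alone for 20, of which 2 kept it. The remaining combinations were H3K27me3 with H3K9me2 (12), H3K9me2 alone (2) and lamin B1 with H3K9me2 (1). No protein-coding gene was touched by 37.2% of those with none of these marks and 42.9% of those with H3K27me3 alone, against 59.7% with all 3, 60.3% with lamin B1 and H3K27me3 and 70% with lamin B1 alone.

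New domains were richer in genes than kept domains and poorer than all length outside control H3K9me3 domains, which includes the new domains. Bodies of protein-coding genes made up 34.1% of the new-domain length, 27.7% of kept domains and 45.9% of the length outside control H3K9me3. Per Mb, 4.65 protein-coding genes had a listed start in new domains, 2.25 in kept domains, 5.54 in gained edges and 6.45 outside control H3K9me3. Of the new domains, 632 (58.4%) touched a protein-coding gene and 451 touched none. A further count found 153 that lay wholly inside the body of 1 protein-coding gene. On the chromosomes with listed starts, 331 of 1043 new domains (31.7%) held a protein-coding start, against 427 of 807 kept domains (52.9%), which are wider.

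The gene families for which H3K9me3 is best known were mostly outside the new domains. Of 468 zinc finger genes named ZNF on chromosomes 1-22, 14 (2.99%) had at least 50% of the body in new domains and 287 (61.3%) in kept domains. Of 416 olfactory receptor genes, 5 (1.20%) were in new and 169 (40.6%) in kept domains. None of 60 genes of the protocadherin clusters was in a new domain and 49 (81.7%) were in kept ones. No HOX gene of 39 was in either. Among all 19126 protein-coding genes 2.69% were in new and 8.16% in kept domains. The zinc finger and olfactory receptor genes thus had a share in new domains near or below that of all protein-coding genes. A gene with over 50% of its body in kept domains cannot be counted in new ones. Low shares of these families in new domains are thus partly set by the rule, and shares among genes outside kept domains were not compared. Of 55 keratin genes, 4 (7.27%) were in new domains and 17 (30.9%) in kept domains.

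Several new domains held runs of neighbouring tissue-specific genes, which are given here as examples chosen after their values were seen. One at chr21:44545001-44680000 (score 0.880) held TSPEAR and 13 keratin-associated protein genes of the KRTAP10 and KRTAP12 groups, which make hair proteins. One at chr7:150445001-150735000 held GIMAP genes, GTPases of lymphocytes, and had lamin B1, H3K27me3 and H3K9me2 in control cells. One at chr1:152380001-152655000 held CRNN and LCE3 genes of the epidermal differentiation complex. One at chr12:52445001-52520000 held the keratin genes KRT5, KRT6A, KRT6B and KRT6C. Of the genes in these 4 domains, TSPEAR alone had enough counts to be tested, so the RNA data say nothing of the others.

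The 5 widest new domains scored between 0.454 and 0.557. The widest, 670 kb on chromosome 8 with a score of 0.459, held no protein-coding gene and had none of the other marks. Next came chr3:50710001-51210000 (score 0.472) inside DOCK3, a Rac guanine nucleotide exchange factor. The third, chr1:148455001-148945000 (score 0.460), held NBPF14, NOTCH2NLB, PDE4DIP, PPIAL4G and NUDT4B, several of which have near-identical copies to which counts may be split. The fourth, chr16:32210001-32675000 (score 0.454), touched TP53TG3D and TP53TG3, which also have copies. The fifth, chr2:239600001-239960000 (score 0.557), touched NDUFA10, a subunit of respiratory complex I, and was 88.9% covered by H3K27me3 in control cells.

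The 5 highest-scoring new domains were 75 to 120 kb wide. The highest, chr22:19270001-19360000 (score 1.26), lay over ends of CLTCL1, a clathrin heavy chain, and HIRA, a histone H3.3 chaperone. That at chr13:112345001-112460000 (1.24) covered SPACA7, a gene of the sperm acrosome, and went from 100% lamin B1 cover in control cells to 0% after knockdown with H3K27me3 at 100% in both. That at chr9:111695001-111800000 (1.22) covered 91.9% of SHOC1, a gene of meiotic recombination. That at chr4:83105001-83225000 (1.21) touched PLAC8, and that at chr4:153825001-153900000 (1.18) held no protein-coding gene and was wholly in lamin B1 and H3K27me3 in both conditions.

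RNA was compared to ask whether genes inside new domains changed in level after knockdown. A gene was assigned to the new domains when at least 50% of its RefSeq span lay in them, which was so for 2055 genes: 514 protein-coding genes (301 of them wholly inside), 735 long noncoding RNA genes, 680 pseudogenes and others. Of these, 737 were named in the count table, 177 of which had 0 counts in all 8 libraries. Enough counts for the test were found for 287, or 38.9% of the 737. Of the protein-coding genes in the count table, 252 of 487 (51.7%) were tested, against 419 of 1447 (29.0%) in kept domains and 12080 of 18332 (65.9%) on chromosomes 1-22. Genes below the filter are not covered by what follows.

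The tested genes in new domains rose and fell in nearly the proportions of all genes. By the edgeR test, whose model included the library kit, 198 of the 287 (69.0%) had an adjusted p under 0.05, where 71.5% of all 13933 tested genes did. Of the 198, 111 rose (38.7% of the 287, against 35.5% of all genes) and 87 fell (30.3%, against 36.1%). The groups of 4 libraries did not overlap for 89 of the 287 that were higher and for 67 of the 287 that were lower. Over all 13933 tested genes this was so for 3965 (28.5%) that were higher and 3907 (28%) that were lower. The median log2 fold change was 0.03 for the 287 and -0.004 for all tested genes. The 0.03 was 0.06 without control replicate 2 or without control replicate 3, and 0.02 without knockdown replicate 3. Relative to the mean of the 2 controls of the same kit, the median was 0.008, 0.011, 0.025 and 0.022 in knockdown replicates 1 to 4. A change of at least 2-fold in a gene that passed the test was found for 29 that rose and 20 that fell, which is 10.1% and 6.97% of the 287 against 7.47% and 8.28% of all genes. Shares this near to those of all genes are not a result about the new domains.

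**Figure D4:**
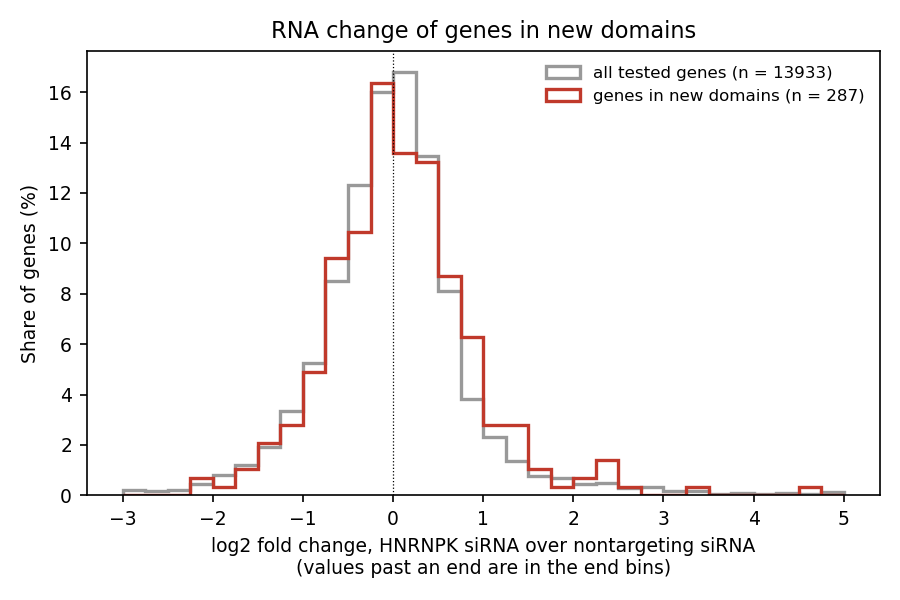
Distribution of log2 fold changes of RNA (HNRNPK siRNA over nontargeting siRNA, edgeR, bins of 0.25) for the 287 tested genes in new domains (red) and for all 13933 tested genes (grey), as a percentage of the genes in each set. The 2 outlines lie over each other around 0, with medians of 0.03 and -0.004.

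In each set of genes split by how they lie in a domain, more genes rose than fell. Over all tested genes 35.5% rose and 36.1% fell, and the differences from these shares were not tested. Of 122 genes wholly inside, 49 (40.2%) rose and 35 (28.7%) fell, with a median log2 fold change of 0.08. Of 279 genes with a listed start in a new domain, 98 (35.1%) rose and 89 (31.9%) fell (median -0.03). Of 209 whose body was touched while their listed starts lay outside, 85 (40.7%) rose and 63 (30.1%) fell (median 0.07). Genes with no listed start, among them IKZF3, CCN1 and APOBEC3B, are in neither of these counts by start. When the new domains were split into 4 equal groups by score, from lowest to highest, 20, 27, 26 and 38 genes rose and 18, 17, 27 and 25 fell, of 57, 58, 80 and 92 tested. For comparison, 500 tested genes in kept domains had a median of 0.20, with 223 (44.6%) that rose and 112 (22.4%) that fell. The difference between the kept-domain and new-domain genes was not tested.

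The counts were also split by the marks that the domains had in control cells. Of 225 tested genes in domains with none of the other marks, 85 rose and 73 fell (median -0.02), and of 50 in domains with H3K27me3 alone 19 rose and 14 fell (median 0.04). In domains that had lamin B1 in control cells 10 genes were tested, all in domains without it after knockdown. Of these 10, 5 rose and none fell (median log2 fold change 0.42). The 50% that passed is below the 71.5% of all tested genes, of which 35.5% rose and 36.1% fell, and nothing is read from 10 genes. Members shared domains: PRKXP1, LINS1 and LOC102723335 lie in 1 domain of chromosome 15. PRKXP1, a pseudogene of the kinase PRKX, stood at 10.3, 11.9, 11.1 and 11.6 CPM in control replicates 1 to 4 and at 23.3, 28.0, 27.1 and 23.1 CPM in knockdown replicates. The groups did not overlap, and edgeR put the change at 1.17 ± 0.09 on the log2 scale (SE), with an adjusted p of 2.12e-09. Reads of PRKXP1 may be shared with PRKX. ZNF648, in a domain with lamin B1, H3K27me3 and H3K9me2, rose from 0.509 ± 0.188 to 1.28 ± 0.403 CPM (SD, n = 4). The part of lamin B1 in these rises was not tested.

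The largest rises ran from 1.49 to 4.51 on the log2 scale. The 8 largest rises among called genes that averaged a log2 CPM of 1 or more and whose groups did not overlap were those of IKZF3, ITGAM, APOBEC3B, ATAD3C, NEK10, CCN1, LVRN and DDX60L. IKZF3, which encodes the lymphoid transcription factor Aiolos, stood at 0.237, 0.376, 0.333 and 0.383 CPM in control replicates 1 to 4. In knockdown replicates it stood at 6.13, 6.98, 10.5 and 8.32 CPM. All knockdown libraries were far above all controls, and edgeR put the change at 4.51 ± 0.22 on the log2 scale (SE), with an adjusted p of 3.66e-12. Its domain, chr17:39795001-39870000, covered 65% of the gene, had a score of 0.457 and lay wholly in H3K27me3 domains in both conditions.

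ITGAM encodes the integrin subunit alpha M of myeloid cells, and its domain chr16:31265001-31350000 also lay wholly in H3K27me3. Its level was 1.13, 0.919, 1.47 and 1.97 CPM in controls and 7.18, 6.24, 7.76 and 7.50 CPM in knockdown libraries. The groups did not overlap, and edgeR put the change at 2.41 ± 0.18 on the log2 scale (SE), with an adjusted p of 1.06e-09. APOBEC3B, a cytidine deaminase of single-stranded DNA, lay wholly in chr22:38885001-39015000, a domain without the other marks. It stood at 7.47, 7.27, 6.60 and 5.04 CPM in controls and at 32.8, 32.5, 30.5 and 29.5 CPM in knockdown libraries, a change that edgeR put at 2.25 ± 0.09 on the log2 scale (SE) with an adjusted p of 3.66e-13. The APOBEC3 genes are close relatives, so some of its reads may be uncertain. The leukocyte markers listed were not detected well enough to test in either group.

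ATAD3C shares its domain at chr1:1445001-1530000 with its paralogs ATAD3A and ATAD3B, which encode a mitochondrial inner membrane ATPase. ATAD3C stood at 1.66, 1.38, 2.60 and 2.19 CPM in controls and at 6.92, 6.46, 11.3 and 10.9 CPM in knockdown libraries, with no overlap. In edgeR the change was 2.19 ± 0.15 on the log2 scale (SE), with an adjusted p of 2.11e-10. In the same domain ATAD3B rose by 0.55 ± 0.09 on the log2 scale (adjusted p 1.73e-05), while ATAD3A had -0.27 ± 0.13 (adjusted p 0.0644). ATAD3A stood at 35.5 and 34.6 CPM in the TruSeq knockdown libraries and at 74.3 and 66.4 CPM in the Ligation ones. Reads can be split among these near-identical copies, so their separate changes are uncertain.

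Of the other rises, CCN1 encodes a secreted matrix protein and lay wholly in chr1:85535001-85830000. It stood at 41.8, 47.7, 16.1 and 18.2 CPM in controls and at 95.2, 115, 79.1 and 76.1 CPM in knockdown libraries. It was higher in every knockdown library, though both groups were lower with the Ligation kit (log2 fold change 1.23 within TruSeq and 2.17 within Ligation libraries). DDX60L, an RNA helicase of the interferon response, stood at 77.4, 85.6, 90.1 and 92.1 CPM in controls and at 233, 245, 261 and 232 CPM in knockdown libraries. NEK10, a kinase, and LVRN, an aminopeptidase, had log2 fold changes of 1.68 ± 0.23 and 1.61 ± 0.12 (SE).

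The largest falls, among genes that met the conditions used for the rises, came from RSPH3 and MAN2B2, whose promoters are printed above. RSPH3, a protein of the radial spoke of cilia, lay wholly in chr6:158860001-159030000, a domain with a score of 0.879 and none of the other marks. It stood at 49.3, 40.9, 68.2 and 64.1 CPM in controls and at 12.6, 12.2, 11.5 and 12.8 CPM in knockdown libraries. The groups were far apart, and edgeR put the change at -2.15 ± 0.10 on the log2 scale (SE), with an adjusted p of 2.59e-12. MAN2B2, an alpha-mannosidase, lay to 82.6% in chr4:6450001-6615000. Its level was 67.0, 58.8, 71.3 and 70.1 CPM in controls and 13.9, 14.3, 14.7 and 17.9 CPM in knockdown libraries, a change that edgeR put at -2.14 ± 0.07 on the log2 scale (SE) with an adjusted p of 3.14e-14. That domain was 90.9% covered by H3K27me3 in both conditions and 48.5% by lamin B1 after knockdown alone.

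TMBIM4, a membrane protein that inhibits apoptosis, fell from 16.5, 14.2, 14.1 and 15.2 CPM to 4.81, 5.57, 3.37 and 4.12 CPM, with no overlap. WNT3A, a secreted ligand of the Wnt pathway, fell from 3.68, 2.55, 4.00 and 4.16 CPM to 0.857, 0.743, 1.43 and 1.65 CPM. Its domain, chr1:227950001-228130000, also holds ARF1, a GTPase of the Golgi, which stood at 530 ± 16.1 CPM in controls and 514 ± 40.3 CPM in knockdown libraries (SD, n = 4) with overlapping groups. These 2 genes of 1 new domain thus had log2 fold changes of -1.63 and -0.05. ARSA, the lysosomal arylsulfatase A, lay in a 60 kb domain that was wholly in lamin B1 after knockdown alone, and it fell by 1.42 on the log2 scale. CBR4, a mitochondrial reductase, ARHGEF35, a guanine nucleotide exchange factor with near-identical relatives, and the noncoding RNA LINC00431 fell by 1.34, 1.28 and 1.43. The body of CBR4 overlaps PALLD, APOBEC3B, RSPH3 and ARHGEF35 overlap annotated antisense genes, and HNRNPK overlaps RMI1 and HNRNPK-AS1; the strand counted is not given in the sources used here.

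**Figure D5:**
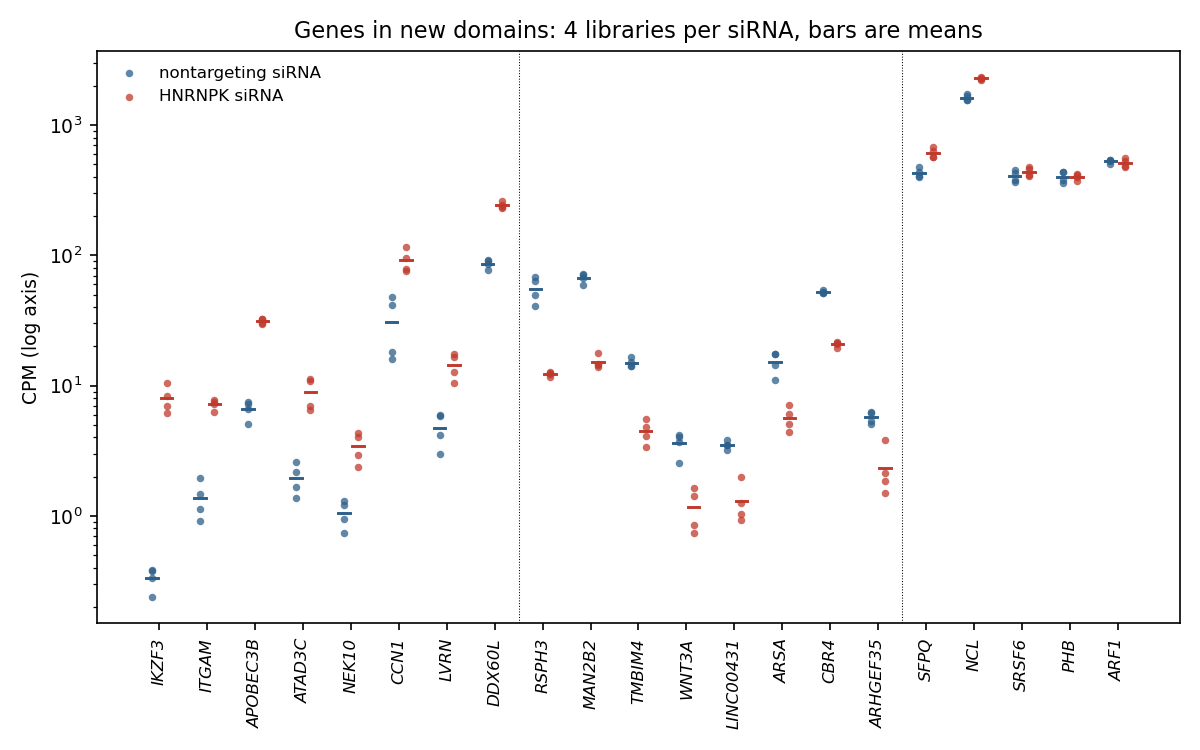
CPM (log axis) of genes in new domains in each of 4 control (blue) and 4 knockdown (red) libraries, with a bar at each mean; from left to right the 8 largest rises, the 8 largest falls and the 5 genes with the highest average CPM. The groups do not overlap in the first 16 genes, which was a condition for choosing them. It was not a condition for the last 5, and there the groups overlap for SRSF6, PHB and ARF1.

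New domains also covered genes with high read counts. The 5 with the highest average CPM, a measure not divided by gene length, were NCL, ARF1, SFPQ, SRSF6 and PHB. NCL, the nucleolar protein nucleolin, lay wholly in chr2:231390001-231470000 (score 0.793), a domain with none of the other marks. It stood at 1664, 1720, 1569 and 1564 CPM in controls and at 2228, 2266, 2320 and 2352 CPM in knockdown libraries, a change that edgeR put at 0.49 ± 0.04 on the log2 scale (SE) with an adjusted p of 5.11e-09. SFPQ, a splicing factor with 51.4% of its span in a new domain, rose by 0.50 ± 0.04 on the log2 scale. SRSF6, an SR splicing factor, had 0.11 ± 0.04 (adjusted p 0.0142), with overlapping groups. Its call was lost without control replicate 4 (adjusted p 0.0514), without knockdown replicate 2 (0.0597) or 4 (0.0554), without the kit term (0.243), within the TruSeq libraries (0.161) and with no filter on low counts (0.118). PHB, prohibitin, had 0.003 ± 0.05 (adjusted p 0.960). For NCL, and for a part of SFPQ, a listed H3K9me3 domain over the gene was found together with a rise in RNA. No start was listed for SFPQ, and the lists do not show where in a domain the signal lay.

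In the widest and highest-scoring domains the genes moved in both directions. CLTCL1, 19.3% of which lay in the highest-scoring domain, stood at 19.1, 19.6, 18.1 and 17.6 CPM in controls and at 11.5, 10.6, 5.48 and 8.41 CPM in knockdown libraries, a change that edgeR put at -1.05 ± 0.12 on the log2 scale (SE) with an adjusted p of 4.17e-07. HIRA, in the same domain with 29.0%, had -0.07 ± 0.05 (adjusted p 0.2). SHOC1 rose from 2.24 ± 0.134 to 4.20 ± 1.01 CPM (SD, n = 4). PDE4DIP and NBPF14 rose by 0.60 and 0.31 on the log2 scale, NDUFA10 fell by 0.21, and DOCK3 and NOTCH2NLB had 0.13 and 0.02 with adjusted p of 0.128 and 0.927. Within the TruSeq libraries alone NBPF14 did not pass (adjusted p 0.129) and DOCK3 did (0.0179). SPACA7 and PLAC8 did not have enough counts to be tested.

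Of the 14 zinc finger genes in new domains, 11 were tested, 7 rose and 1 fell, where 35.5% of all tested genes rose and 36.1% fell; with 11 genes nothing particular to them is read from the count. ZNF473 stood at 28.6, 32.2, 32.3 and 29.7 CPM in controls and at 60.8, 62.0, 54.9 and 59.3 CPM in knockdown libraries, with no overlap. ZNF189 and ZNF621 rose by 0.68 and 0.61 on the log2 scale, both in domains that had H3K27me3 in control cells. ZNF658 fell by 0.97, and its pseudogene ZNF658B is a close copy with which reads may be shared. ZNF860, ZNF558 and ZNF519 had log2 fold changes of -0.31, -0.05 and -0.03 and did not pass the test.

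Genes of the H3K9 methylation system itself were outside the new domains. Of 31 listed writers, erasers, readers and cofactors 30 were tested (EHMT2 was not), 11 rose and 10 fell, a share of calls near the background of all genes. KDM4B, an H3K9me3 demethylase, stood at 68.1, 39.6, 90.5 and 83.3 CPM in controls and at 14.5, 13.8, 20.8 and 19.4 CPM in knockdown libraries. The groups did not overlap, and edgeR put the change at -2.02 ± 0.13 on the log2 scale (SE), with an adjusted p of 7.52e-11. KDM4A, a demethylase of the same family, rose by 0.88 ± 0.05, and ZNF274, which recruits SETDB1 to zinc finger genes, rose by 0.99 ± 0.09. The writers SUV39H1 and SETDB1 had 0.04 ± 0.09 and -0.03 ± 0.05 (adjusted p 0.661 and 0.692), and SUV39H2 fell by 0.37. Whether these RNA levels bear on the new domains was not tested.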

How the data were processed

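Domain lists were used as the authors deposited them: per the file contents, each domain has coordinates, a score of unstated unit and method, and a width, on steps of 5 kb; 21 ends off these steps equal GRCh38 chromosome lengths. Per the submitters' processing notes, ChIP reads were handled with fastp 0.23.2, Bowtie2 2.5.1 and deepTools 3.1.3 on hg38, and RNA reads with STAR 2.7.1a and featureCounts of Subread 2.0.6; the domain caller, pooling of replicates, annotation and strand are not given in the sources used here. The RNA values are raw counts per gene in a table deposited by the authors. The 2 Scramble control tables were not used, since their purification kit and table differ.

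Domains were compared by base in Python 3.11.15 with pandas 2.3.3. RefSeq positions (GRCh38.p14) were matched by name for 97.6% of 28278 gene names, and promoter windows were taken from RefSeq on the same build. A domain or gene counted as covered at 50% or more. RNA was tested with edgeR 4.0.16 (filterByExpr, TMM, quasi-likelihood, library kit and treatment, Benjamini-Hochberg over 13933 genes, threshold 0.05). Per-library medians used CPM with a pseudocount of 0.5. Deviations from the group means correlated between control and knockdown libraries of one number (r across genes of 0.100, 0.425, 0.337 and 0.265). Within kits r was 0.009 to 0.058. The main model held the kit and no pairs, and the alternative with a replicate block treated libraries of one number as pairs. The named genes are HNRNPK; the 8 largest rises and 8 largest falls among genes in new domains with adjusted p under 0.05, average log2 CPM of at least 1 and groups that do not overlap; the 5 highest by average CPM; protein-coding genes touching the 5 widest or 5 highest-scoring domains; and H3K9 genes past an absolute log2 fold change of 1. PRKXP1, ATAD3A, ATAD3B, the zinc finger genes and further H3K9 genes were added after their values were seen. On data simulated for this comparison over 13777 genes, 194 of 199 changed genes were recovered and 15 unchanged genes (0.110%) were called. In the RNA data 9968 of 13933 genes passed, and recovery with that many changed genes was not tested. The members and lists were chosen with earlier results of these data known. Alternatives were size factors and Wald test from DESeq2 1.42.0, leaving out the filter or the kit term, a replicate block, each kit alone, each library left out, other gene assignments, and limits on gap, width and score.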

Additional observations from a re-analysis of the deposited data

Results flagged for a closer look

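The HNRNPK siRNA effect on 2 genes in new domains differed between the library kits, by the interaction term of edgeR (adjusted p under 0.05 for 18, or 0.129%, of all tested genes). For CCN1 the log2 fold change was 0.94 larger with the Ligation kit (adjusted p 0.00525), and for ATAD3B it was 0.62 larger (adjusted p 0.00465). Both genes were higher in the knockdown libraries of either kit. Among the genes named by rule, no value stood far from the rest of its group in 62 groups of 4 libraries examined. This was a check gene by gene and not of whole libraries.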

How the results depend on the processing

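The number of genes in new domains that passed the test was 198 of 287. It was 199 with the size factors of DESeq2, 181 with its Wald test, 172 without the kit term, 167 of 301 within TruSeq libraries alone, 189 of 290 within Ligation libraries alone, and 234 of 560 with no filter on low counts, where the median log2 fold change moved from 0.03 to 0.29 and more genes of low counts were tested; over all genes 10865 of 21564 then passed, with a median of 0.07. With a replicate block in place of kit it was 197, of which 195 were the same genes, and over all genes 9872 passed against 9968. The block changed no call among the named genes. Leaving out each library in turn gave 189 to 204 genes in new domains and 9612 to 9997 over all genes, and the log2 fold change of HNRNPK ran from -2.25 to -2.13. The median of the genes in new domains ran from 0.02 (without knockdown replicate 3) to 0.06 (without control replicate 2 or 3); it was 0.05 within TruSeq libraries alone, 0.006 by gene midpoint and 0.08 by whole body. Assigning a gene by any overlap gave 424 of 611, and by its whole body 84 of 122; the number of genes assigned differs by construction. By a listed start, an alternative chosen after seeing the data, 187 of 279 passed and the median was -0.03. Domains of at least 100 kb were 324 with 51.5 Mb, control lamin B1 over 16.7% and H3K9me2 over 11.1% of their length, and 101 genes that passed. The 542 domains at or above the median score spanned 53.9 Mb, of which lamin B1 covered 10.2% in control cells and 4.52% after knockdown, H3K27me3 32.1% and 30.8%, and control H3K9me2 5.68%; 116 genes in them passed. The cause of the lower lamin B1 and H3K9me2 cover at high scores was not tested. Fewer genes are assigned to these smaller sets of domains, so the counts of 101 and 116 say nothing of width or score. Of the 4 groups by score, 66.3% of 80 tested genes passed in the third and 68.5% of 92 in the highest. Over all tested genes 71.5% passed. A gap of at least 50 kb left 1069 domains, and adding chromosomes X and Y gave 1111. No named gene that passed the test changed direction under the alternatives run. Among those that did not pass, ARF1 went from -0.05 to 0.02 and DOCK3 from 0.13 to -0.05 with Ligation libraries alone, PHB ran from -0.07 (TruSeq alone) to 0.08 (Ligation alone) and NOTCH2NLB from -0.25 (Ligation alone) to 0.26 (TruSeq alone). The depth behind the domain lists is unknown, so the absence of a domain from a list does not show absence of the mark.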
